A study of Mus musculus with 6 samples.

Results

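The mRNAs examined were those of 10 genes among the 27179 in the count tables: the matrix metalloproteinases (MMPs) Mmp2, Mmp3, Mmp9, Mmp10, Mmp11, Mmp13 and Mmp14, and the tissue inhibitors of metalloproteinases (TIMPs) Timp1, Timp2 and Timp3. They were taken by gene symbol, matched to the NCBI Gene identifiers of the tables. The samples were mouse embryonic fibroblast (MEF) lines that all lacked Cry1, Cry2, Per1, Per2, Nr1d1 and Nr1d2, the genes of the main repressors of the circadian clock. The CPN-/- line carried these knockouts alone, the CPN-/- CRY1 line also expressed exogenous CRY1, and the CPN-/- CRY2 line also expressed exogenous CRY2. The study grew the lines in serum-containing medium with no further treatment, to ask what each CRY protein does in cells without a working clock. Each CRY protein was delivered by virus under a viral promoter, and each of these lines came from a drug-selected colony, so that an effect of the protein and a property of the colony cannot be told apart. Poly(A) RNA was sequenced from 2 RNA preparations per line, and p-values measure the spread between such preparations of the same line.

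MMPs are zinc-dependent proteases that cut collagens, proteoglycans and other proteins of the extracellular matrix and cell surface. Most are secreted as inactive proenzymes, and some are anchored in the plasma membrane. TIMPs bind active MMPs and block them, so that fibroblasts set the turnover of the matrix through the levels of both. Fibroblasts make gelatinase A and several TIMPs steadily. Secreted collagenases, stromelysin-1 and stromelysin-2 are known as genes that growth factors, cytokines and the AP-1 transcription factors switch on.

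The libraries held between 25957409 and 36106949 counts, and values are given as CPM (counts scaled to 1000000 in each library, with its effective size). Of 12 fibroblast markers, Vim, Col1a1 and Col1a2 had between 56781 and 172429 counts in every library, whereas Thy1 had at most 7 counts, Dcn at most 61 and Lum at most 1. Some markers differed by line (edgeR, adjusted p under 0.05). In CPN-/- CRY1 against CPN-/-, 2 of the 10 tested were higher, Pdgfrb (log2 difference 0.88) and Fbn1 (1.14), and 2 lower, Pdgfra (-1.31) and Dcn (-2.92). In CPN-/- CRY2 against CPN-/-, 1 was higher, Dcn (1.44). Between the CRY lines, 3 were lower in CPN-/- CRY1, Dcn (-4.36), Pdgfra (-1.42) and Col1a2 (-0.65), and 0 were higher. Of all tested genes 24.3%, 6.66% and 16.3% differed in these comparisons. Of 7 leukocyte and macrophage markers, the defining Ptprc, Adgre1 and Itgam had at most 2 counts each and Csf1r 4 to 10, whereas Cd68 had 44 to 65, Lyz2 31 to 153 and Cd14 218 to 379. Their summed level was 14.9 and 18.5 CPM in CPN-/-, 16.3 and 16.7 CPM in CPN-/- CRY1, and 11.3 and 13.2 CPM in CPN-/- CRY2, and Lyz2 was higher in CPN-/- CRY1 than in CPN-/- CRY2 (log2 difference 1.19, adjusted p = 0.0406), where 7.72% of all tested genes were higher. The summed endothelial markers reached 1.00 CPM, and the summed epithelial markers 0.482 CPM. Summed smooth muscle markers differed by line, from 1414 to 1792 CPM for CPN-/-, from 5180 to 5369 CPM for CPN-/- CRY1 and from 2155 to 2398 CPM for CPN-/- CRY2. In the comparison of CPN-/- CRY1 with CPN-/-, 3 of the 4 tested smooth muscle markers were higher, beside 11.2% of all tested genes. Against CPN-/- CRY2, 3 were higher in CPN-/- CRY1, beside 7.72% of all tested genes. In CPN-/- CRY2 against CPN-/-, 1 was higher, Actg2 (log2 difference 2.00), beside 2.58%. Cnn1, which was not tested, had 8 and 7 counts in CPN-/- but 2 and 3 in CPN-/- CRY1. The part of the fibroblast, macrophage, endothelial and smooth muscle markers in the results below was not tested. Cry1 mRNA was at 125 and 115 CPM in CPN-/- and at 165 and 190 CPM in CPN-/- CRY1, and Cry2 mRNA was at 136 and 129 CPM in CPN-/- and at 349 and 351 CPM in CPN-/- CRY2. Thus both knocked-out genes still gave counts in CPN-/-, and each was higher in the line that received it. In the other CRY line each was lower than in CPN-/-. Cry1 was at 51.0 and 48.3 CPM in CPN-/- CRY2, and Cry2 was at 50.7 and 51.7 CPM in CPN-/- CRY1. Each value describes a whole culture, in which fewer cells of a kind and less RNA per cell cannot be told apart.

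Mmp3, Mmp13 and Mmp10 lie together on chromosome 9, and their promoters are shown because these are the members with the largest differences between lines or, for Mmp10, their neighbour with few counts. Each window holds the 250 bases before and 50 bases after the annotated start, from RefSeq on GRCm38.p6 (mm10), all on the plus strand: chr9:7445572-7445871 for Mmp3, chr9:7272264-7272563 for Mmp13 and chr9:7502092-7502391 for Mmp10. Capitals mark the AP-1 motif (TGANTCA) and the TATA box (TATAAA).
Mmp3: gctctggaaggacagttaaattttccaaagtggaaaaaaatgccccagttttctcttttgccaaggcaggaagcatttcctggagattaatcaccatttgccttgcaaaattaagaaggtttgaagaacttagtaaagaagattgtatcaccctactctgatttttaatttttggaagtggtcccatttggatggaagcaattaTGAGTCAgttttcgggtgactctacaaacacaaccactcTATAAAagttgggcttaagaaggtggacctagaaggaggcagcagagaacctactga
Mmp13: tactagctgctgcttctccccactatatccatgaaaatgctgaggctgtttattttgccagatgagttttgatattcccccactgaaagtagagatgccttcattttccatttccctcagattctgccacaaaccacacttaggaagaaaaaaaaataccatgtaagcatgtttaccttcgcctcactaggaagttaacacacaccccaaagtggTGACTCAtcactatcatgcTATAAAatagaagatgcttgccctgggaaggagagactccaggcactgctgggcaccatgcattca
Mmp10: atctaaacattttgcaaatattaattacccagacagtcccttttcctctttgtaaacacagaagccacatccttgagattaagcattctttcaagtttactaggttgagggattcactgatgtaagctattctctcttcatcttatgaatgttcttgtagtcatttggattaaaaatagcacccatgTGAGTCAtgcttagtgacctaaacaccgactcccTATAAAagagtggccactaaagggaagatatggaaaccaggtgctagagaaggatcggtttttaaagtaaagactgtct
Each of the 3 windows held 1 match to TGANTCA, followed by 1 match to TATAAA. Relative to the annotated start, the AP-1 match began at position -46 in Mmp3, -35 in Mmp13 and -63 in Mmp10. The TATAAA match began at -7, -16 and -29 in the same order. All these positions depend on the annotated starts. Neither motif matched on either strand in the windows of the other 5 members with an entry (Mmp11, Mmp14, Timp1, Timp2 and Timp3). The E-box CACGTG, the element that the CLOCK and BMAL1 activators bind and through which CRY proteins repress, matched in none of the 8 windows. The paper places the E-boxes of Pdk1, a gene it reports as repressed by CRY, in the first intron, beyond such a window. Windows this few and short cannot show whether an E-box acts on these genes, which was not tested. Among 32851 annotated promoters of the same length, 7.81% held TGANTCA, 13.6% held TATAAA and 7.15% held CACGTG. No motif overlapped another, and a match gives letters in this window only. The 3 windows shown were picked with the differences known. They belong to related neighbours (Mmp10 aligns to Mmp3 at 81.2% identity over 1338 bases), so their matches are not independent. Any part of these motifs in the levels was not tested.

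Across the family, levels per kilobase of transcript spanned 4 orders of size. Timp2 and Timp3 had the highest means over the 6 libraries, both at 314.7 CPM per kilobase, followed by Timp1 at 174, Mmp2 at 105, Mmp14 at 67.1 and Mmp11 at 25.2. Mmp3 followed at 1.90 CPM per kilobase, Mmp13 at 0.311, Mmp10 at 0.0686 and Mmp9 at 0.0262. The ranges over libraries of Timp2 and Timp3 overlapped, as did those of Mmp3 and Mmp13, of Mmp13 and Mmp10, and of Mmp10 and Mmp9. Every other neighbouring pair in this order was separate. The cells therefore held the inhibitors and the Mmp2, Mmp14 and Mmp11 transcripts in quantity, and the Mmp3, Mmp13, Mmp10 and Mmp9 transcripts at low levels.

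**Figure D1:**
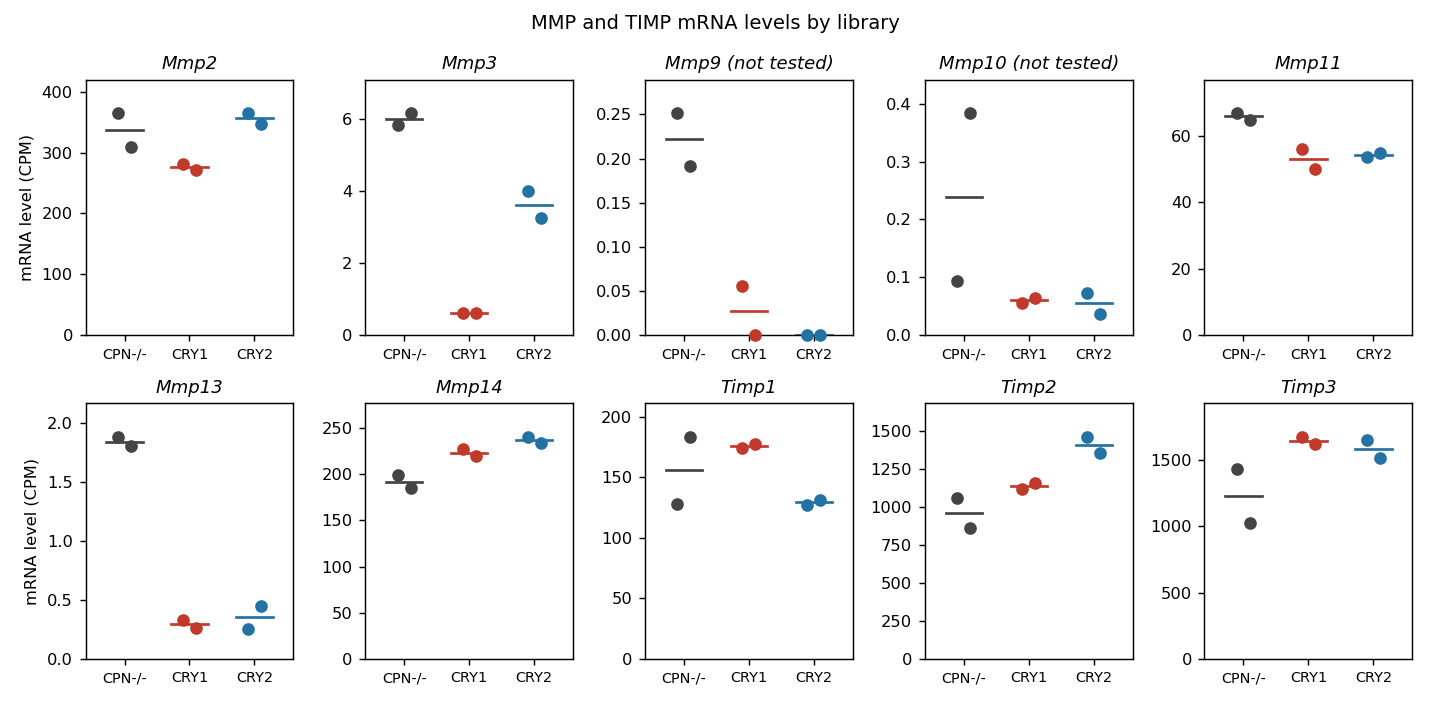
mRNA level in CPM (vertical axes, linear from 0, one scale per gene) of the 10 genes in the CPN-/-, CPN-/- CRY1 (labelled CRY1) and CPN-/- CRY2 (labelled CRY2) lines. Points are the 2 libraries of a line and bars their mean. Mmp3 is lower in CRY1 than in CRY2, Mmp13 is low in both, and the 2 CPN-/- libraries lie far apart for Timp1 and Timp3.

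Of the 8 members that passed the filter on low counts, 2 were lower in CPN-/- CRY1 than in CPN-/- and none was higher (edgeR quasi-likelihood test, adjusted p under 0.05, Benjamini-Hochberg over 14069 genes). In the same comparison 24.3% of all tested genes were called, of all tested genes 13.1% lower and 11.2% higher. In CPN-/- CRY2 against CPN-/-, 2 members were lower and none higher, where 6.66% of all genes were called, 4.08% lower and 2.58% higher. Between the CRY lines 1 member was called, lower in CPN-/- CRY1, where 16.3% of all genes were called, 8.57% lower and 7.72% higher. At an unadjusted p under 0.05, 1 member was higher in CPN-/- CRY1 and 2 in CPN-/- CRY2 against CPN-/-, and the DESeq2 Wald test called 0 and 1 (Timp2). The 8 members had a median log2 fold change of -0.06 for CPN-/- CRY1 and -0.10 for CPN-/- CRY2, beside -0.01 over all genes in each. The members called were Mmp3 and Mmp13, and Mmp13 passed the filter because of its CPN-/- libraries, both of which lay over the cutoff as in no other line, so these shares are no evidence about the family. Mmp13 was also called against CPN-/- with no filter on low counts. The counts depended on single libraries. The number called over all tested genes also moved with single libraries, so such counts are no result about the members. With 1 library left out, the log2 fold change of Mmp3 against CPN-/- ranged from -3.33 to -3.24 in CPN-/- CRY1. In CPN-/- CRY2 it ranged from -0.88 to -0.59. Mmp13 ranged from -2.81 to -2.46 and from -2.82 to -2.04 in these lines.

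Mmp3 (stromelysin-1; Gene ID 17392, chr9:7445822-7455975) cuts proteoglycans, fibronectin and several matrix proteins and activates other proMMPs. The CPN-/- libraries held 186 and 161 counts of it, those of CPN-/- CRY1 22 and 19, and those of CPN-/- CRY2 109 and 88. Scaled to library size, the levels were 5.85 and 6.18 CPM, 0.609 and 0.616 CPM, and 4.005 and 3.26 CPM. The 3 lines did not overlap, with CPN-/- highest and CPN-/- CRY1 lowest. Mmp3 mRNA was 9.75-fold lower in CPN-/- CRY1 than in CPN-/- (log2 fold change -3.29, SE 0.20, adjusted p = 2.5e-04). In CPN-/- CRY2 it was 1.65-fold lower than in CPN-/- (log2 fold change -0.72, SE 0.16, adjusted p = 0.0459). That call was lost under 10 of 17 alternative settings, and over all 17 the log2 fold change lay between -0.88 and -0.52. Among the losses were the fits without either CPN-/- CRY2 library (-0.88 and -0.59) and without either CPN-/- CRY1 library (-0.73 each). The difference between the CRY lines was itself tested, and Mmp3 was 5.90-fold lower in CPN-/- CRY1 (log2 fold change -2.56, 95% interval -3.06 to -2.06, adjusted p = 6.4e-04). The predicted gene Gm15242 shares 284 bases with Mmp3 at 95.4% identity, and how the authors' counting divided reads between such copies is not stated.

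Mmp13 (collagenase-3; Gene ID 17386, chr9:7272514-7283333) is the main enzyme of rodents that cuts fibrillar collagen. The CPN-/- libraries held 60 and 47 counts of it, those of CPN-/- CRY1 12 and 8, and those of CPN-/- CRY2 7 and 12. The corresponding levels were 1.89 and 1.80 CPM, 0.332 and 0.259 CPM, and 0.257 and 0.445 CPM. Both CRY lines lay below CPN-/- and overlapped each other. The level was 6.12-fold lower in CPN-/- CRY1 (log2 fold change -2.61, SE 0.30, adjusted p = 0.00198) and 5.22-fold lower in CPN-/- CRY2 (log2 fold change -2.38, SE 0.30, adjusted p = 0.00561). Without the first CPN-/- CRY2 library the latter call was lost, at an adjusted p of 0.0653. Between the CRY lines the log2 difference was -0.23 with a 95% interval of -1.19 to 0.73, and the adjusted p was 0.786. At this depth the interval leaves room for a difference of more than 1.5-fold in either direction. Of the 2 genes, Mmp3 alone was called between the CRY lines, and whether the patterns of Mmp3 and Mmp13 differ was not tested.

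Mmp10 (stromelysin-2; Gene ID 17384, chr9:7502342-7510242) cuts many of the substrates of Mmp3 and was too low to be tested. The CPN-/- libraries held 3 and 10 counts, those of CPN-/- CRY1 2 and 2, and those of CPN-/- CRY2 2 and 1, so that 10 of the 13 counts of CPN-/- came from a single library. Pooled over libraries, the ratio of CPN-/- to CPN-/- CRY1 was 3.81 (exact 95% interval 1.18 to 16.03), and that of CPN-/- to CPN-/- CRY2 was 4.11 (1.13 to 22.5). Mmp9 (gelatinase B; Gene ID 17395, chr2:164940326-164955850), which cuts denatured and basement membrane collagen, had 8 and 5 counts in CPN-/- and 2 and 0 in CPN-/- CRY1, and it was at 0 in both libraries of CPN-/- CRY2. The pooled ratio of CPN-/- to CPN-/- CRY1 was 7.62 (1.72 to 69.5). Against CPN-/- CRY2, where a count of 0 allows up to 3 counts over the line, Mmp9 was at least 4.11-fold higher in CPN-/-, with the 13 counts of CPN-/- taken as exact. With the counting error of both lines, the exact 95% interval of this ratio began at 2.89. These intervals and floors cover counting error only and not the spread between libraries. With no filter on low counts, the adjusted p of Mmp9 was 0.0968 for CPN-/- CRY1 and 0.0767 for CPN-/- CRY2 against CPN-/-, and those of Mmp10 were 0.194 and 0.2998.

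Mmp13, Mmp3 and Mmp10 lie within 237729 bases, with Mmp12, Mmp1b and Mmp1a between them. Mmp12 had at most 1 count and Mmp1a at most 2 in any library, and Mmp1b, a rodent relative of the interstitial collagenase, had 5 to 11 counts. Mmp8, Mmp27 and Mmp7, farther along, were at 0 in all libraries, and Mmp20 had at most 1 count. The 9 other tested genes within 1000000 bases of the 3 members had a median log2 fold change of 0.16 in CPN-/- CRY1 (range -1.34 to 0.36) and of -0.02 in CPN-/- CRY2 (range -0.45 to 0.64). In CPN-/- CRY1, 2 of them were lower, Birc2 (log2 fold change -0.47) and Birc3 (-0.72), which encode inhibitors of apoptosis, and none was called in CPN-/- CRY2. Over all tested genes 24.3% and 6.66% were called, so that the count of neighbours lay near that share. Over the 748 tested genes of chromosome 9 the medians were 0.02 and -0.04. In both comparisons with CPN-/-, the log2 fold changes of Mmp3 and Mmp13 lay below those of all 9 neighbours. The window was set around these members with their differences known, so this order says little of the region. A cause shared with the region was not tested.

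**Figure D2:**
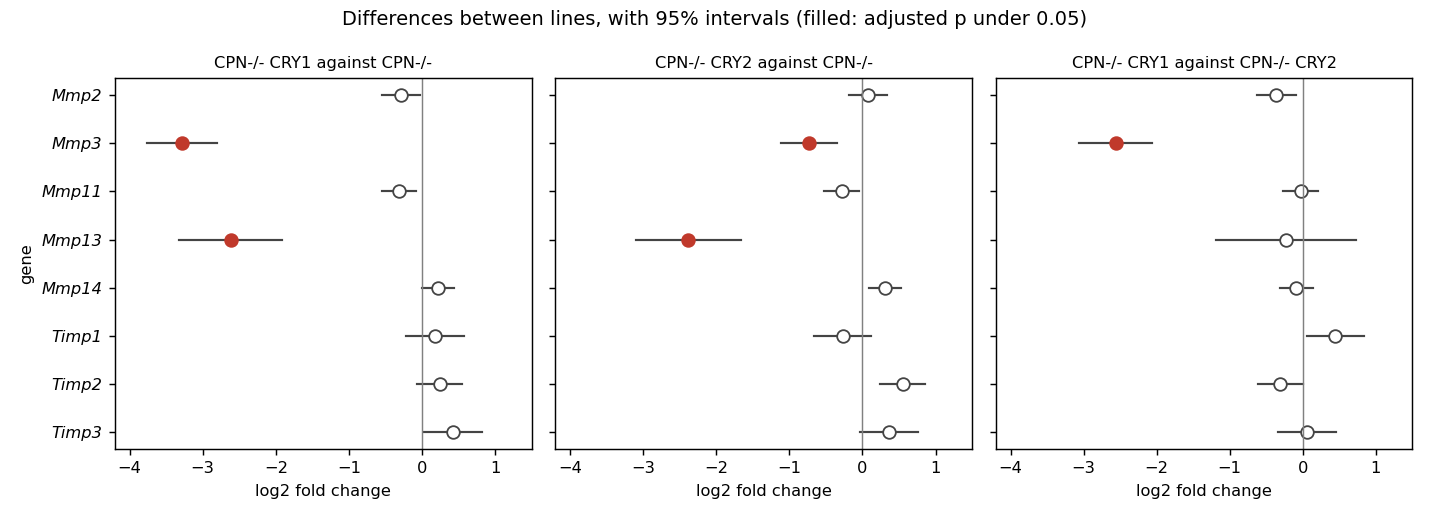
log2 fold change (horizontal axes) with its 95% interval for the 8 tested members in the 3 comparisons, the first-named line minus the second. Filled points have an adjusted p under 0.05: Mmp3 in all 3 comparisons and Mmp13 in the comparisons with CPN-/-, while the intervals of the other members lie between -0.66 and 0.86.

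Mmp2, Mmp14 and Mmp11 were the abundant MMPs among the members, and none of them passed the edgeR test. Mmp2 (gelatinase A; Gene ID 17390, chr8:92827290-92853421), which cuts denatured and basement membrane collagen and is activated at the cell surface, was at 365 and 310 CPM in CPN-/-, 282 and 271 CPM in CPN-/- CRY1, and 365 and 348 CPM in CPN-/- CRY2. CPN-/- CRY1 lay below both other lines, and CPN-/- and CPN-/- CRY2 overlapped. The log2 difference of CPN-/- CRY1 from CPN-/- was -0.29 (adjusted p = 0.102) and that from CPN-/- CRY2 -0.37 (adjusted p = 0.0717), neither past the threshold. Mmp14 (MT1-MMP; Gene ID 17387, chr14:54431598-54442456), the membrane-anchored collagenase that activates proMMP2 together with TIMP2, was at 199 and 185 CPM in CPN-/-, 227 and 220 CPM in CPN-/- CRY1, and 241 and 234 CPM in CPN-/- CRY2. The 3 lines did not overlap, yet the log2 fold changes of 0.22 (95% interval -0.0020 to 0.44) and 0.31 (0.09 to 0.53) had adjusted p of 0.127 and 0.114. Mmp11 (stromelysin-3; Gene ID 17385, chr10:75923221-75932502), which is activated inside the cell by furin, was at 66.8 and 64.8 CPM in CPN-/-, 56.0 and 49.9 CPM in CPN-/- CRY1, and 53.5 and 54.8 CPM in CPN-/- CRY2. Both CRY lines lay below CPN-/-, by -0.31 (adjusted p = 0.0616) and -0.28 (adjusted p = 0.155) on the log2 scale. Separate ranges alone say little here, since the libraries of the lines did not overlap for 66.9% of all tested genes in CPN-/- CRY1 against CPN-/-, for 55.1% in CPN-/- CRY2 against CPN-/-, and for 73.3% between the CRY lines. Mmp11 shares 155 exonic bases with Chchd10 on the opposite strand, which had 13 to 23 counts, and the strand setting of the counting is not stated.

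None of the TIMPs passed the edgeR test in any comparison. At an unadjusted p under 0.05, 1 TIMP differed in CPN-/- CRY1 and 1 in CPN-/- CRY2 against CPN-/-, and 2 between the CRY lines, and the DESeq2 Wald test called Timp2 in CPN-/- CRY2. Timp1 (Gene ID 21857, chrX:20870166-20874737), the inducible inhibitor that also binds proMMP9, was at 128 and 184 CPM in CPN-/-, 174 and 178 CPM in CPN-/- CRY1, and 128 and 131 CPM in CPN-/- CRY2. The first CPN-/- library lay near CPN-/- CRY2 and the second above CPN-/- CRY1, while the CRY lines were apart. The log2 difference of CPN-/- CRY1 over CPN-/- CRY2 was 0.45 (95% interval 0.05 to 0.84, adjusted p = 0.120). Timp2 (Gene ID 21858, chr11:118301061-118355411), which inhibits MMPs broadly and takes part in the activation of proMMP2, was at 1059 and 860 CPM in CPN-/-, 1115 and 1155 CPM in CPN-/- CRY1, and 1462 and 1353 CPM in CPN-/- CRY2. The lines were ordered without overlap, and the log2 fold change of CPN-/- CRY2 over CPN-/- was 0.55 (95% interval 0.25 to 0.86) with an adjusted p of 0.0556, just short of the threshold. Timp2 passed the test in this comparison under 7 of the 17 alternative settings, among them the DESeq2 Wald test. Timp3 (Gene ID 21859, chr10:86300412-86349505), which stays bound to the matrix and also inhibits ADAM and ADAMTS proteases, was at 1432 and 1023 CPM in CPN-/-, 1676 and 1619 CPM in CPN-/- CRY1, and 1653 and 1514 CPM in CPN-/- CRY2. Both CRY lines lay above CPN-/-, by 0.42 (adjusted p = 0.105) and 0.37 (adjusted p = 0.231) on the log2 scale. Timp3 lies within Syn3, which runs on the opposite strand, shares 1733 exonic bases with it and had 89 to 205 counts.

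The summed level of the 3 TIMPs per kilobase was 3.44 and 3.45 times that of the 7 MMPs in the CPN-/- libraries, 4.57 and 4.80 times in CPN-/- CRY1, and 4.07 and 3.95 times in CPN-/- CRY2. The lines did not overlap in this ratio, but by pair of lines neither did 55.1% to 73.3% of all tested genes. In CPN-/-, Timp1 differed between libraries in the direction opposite to Timp2 and Timp3, so the like ratios there are no measure of precision. Mmp2 and Mmp14 set the ratio on the side of the proteases. The ratio is given as a description of mRNA, with no test, and says nothing of the amount of active enzyme.

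For each TIMP the CPN-/- libraries lay farther apart than those of either CRY line, and these libraries also differed from each other by transcript length. Across 12474 tested genes with a known length, the difference between the 2 libraries of CPN-/- had a Spearman correlation with length of 0.70, beside -0.20 in CPN-/- CRY1 and 0.29 in CPN-/- CRY2. These genes share the libraries and are not independent replicates. Among the members, the short Timp1 transcript (883 bases) was lower in the first CPN-/- library by 0.52 on the log2 scale, and the long Timp3 transcript (4722 bases) was higher in it by 0.49. Timp2 was higher by 0.30, whereas Mmp3 and Mmp13 differed by -0.08 and 0.06. Tested genes binned by length had medians of -0.49 near 769 bases, 0.13 near 3813 bases and 0.26 near 4883 bases. The part of the length trend in the TIMP values was not tested. When the trend with length was removed from every library, 7 members were called in CPN-/- CRY1 against CPN-/-, with Mmp2 lower and Mmp14, Timp1, Timp2 and Timp3 higher beside Mmp3 and Mmp13. The share of all genes called rose at the same time from 24.3% to 44.9%. In CPN-/- CRY2 against CPN-/-, 5 members were then called, with Mmp14, Timp2 and Timp3 higher beside Mmp3 and Mmp13, where 22.0% of all genes were called. Between the CRY lines Mmp2, Timp1 and Timp2 were then called beside Mmp3, among 36.6% of all genes.

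**Figure D3:**
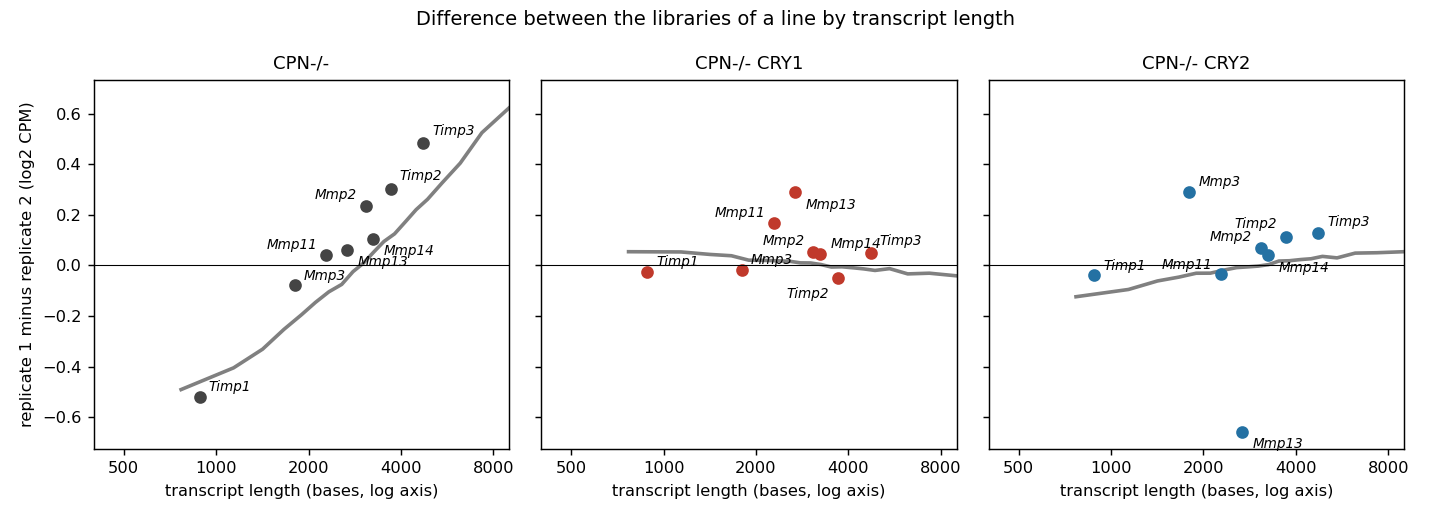
Difference between the 2 libraries of each line (replicate 1 minus replicate 2, log2 CPM) against transcript length in bases (log axis). Grey lines are medians over 20 bins of tested genes by length and points are the 8 tested members. In CPN-/- the difference climbs with length and runs from -0.52 for Timp1 to 0.49 for Timp3, while Mmp3 and Mmp13 lie near 0.

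The other 16 MMP genes and Timp4 were mostly silent or low, and 6 of these 17 genes were tested. In CPN-/- CRY1 against CPN-/-, 1 was higher and 1 was lower, and in CPN-/- CRY2 against CPN-/- 1 was lower, where 24.3% and 6.66% of all tested genes were called in either direction. With 6 genes, such counts say nothing of the list as a whole. Mmp15, a membrane-type MMP, was at 1.04 and 0.652 CPM in CPN-/-, 4.10 and 3.37 CPM in CPN-/- CRY1, and 0.441 and 0.519 CPM in CPN-/- CRY2. It was 4.34-fold higher in CPN-/- CRY1 than in CPN-/- (log2 fold change 2.12, SE 0.25, adjusted p = 0.00248) and 7.74-fold higher than in CPN-/- CRY2 (log2 difference 2.95, adjusted p = 0.00126). Mmp19, a secreted MMP that cuts basement membrane proteins, was lower in both CRY lines by almost the same amount. Its levels were 70.1 and 69.5 CPM in CPN-/-, 45.6 and 42.9 CPM in CPN-/- CRY1, and 43.1 and 45.4 CPM in CPN-/- CRY2, with log2 fold changes of -0.66 in each comparison (adjusted p = 0.00465 and 0.00921). The calls of Mmp15 held under all 17 alternatives, and those of Mmp19 were lost without either library of the CRY line concerned (adjusted p between 0.0593 and 0.155), which left 1 call in CPN-/- CRY1 and 0 in CPN-/- CRY2. Without the first CPN-/- library, and in CPN-/- CRY2 also without the second, more of the 6 tested genes were called. The number over all tested genes also moved with single libraries.

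Of the ADAM and ADAMTS proteases, the relatives that shed membrane proteins and cut proteoglycans and procollagens, 18 of 20 were tested. In CPN-/- CRY1 against CPN-/-, 7 were higher and 3 lower, with a median log2 fold change of 0.53 over the list and of -0.01 over all genes. In CPN-/- CRY2 against CPN-/-, 2 were higher and 3 lower, with a median of 0.06. The shares of all tested genes called in either direction were 24.3% and 6.66%. Several of these transcripts are long, such as Adamts5 (10791 bases), Adamts9 (8016) and Adamts2 (7266), and the CPN-/- libraries differed by length. With the length trend removed, 14 were called in CPN-/- CRY1, beside 44.9% of all genes. The part of transcript length in the medians of the list was not tested. Adamts1 and Adamts5, which cut aggrecan and versican, were higher in CPN-/- CRY1, with log2 fold changes of 1.66 and 1.21, and Adamts1 was also higher in CPN-/- CRY2, by 1.00. Both lie on chromosome 16, whose 420 tested genes had a median log2 fold change of 0.27 in CPN-/- CRY1, and the part of that shift in their values was not tested. Adamts2, a procollagen N-proteinase, was at 4.21 and 3.26 CPM in CPN-/-, 7.58 and 6.42 CPM in CPN-/- CRY1, and 1.29 and 1.33 CPM in CPN-/- CRY2. Against CPN-/- it thus moved in opposite directions, up in CPN-/- CRY1 (0.90 on the log2 scale) and down in CPN-/- CRY2 (-1.52). Adam23, a member without protease activity, followed the same order, with 0.70 and -1.60. Adam8, a sheddase, was at 23.1 and 19.5 CPM in CPN-/-, 3.98 and 3.89 CPM in CPN-/- CRY1, and 18.2 and 18.8 CPM in CPN-/- CRY2, a log2 fold change of -2.44 for CPN-/- CRY1. Adamts9 was lower in CPN-/- CRY1 by a log2 fold change of -1.59 and Adam15 by -0.44. Adam15 lies on chromosome 3, whose median in that comparison was -0.28. In CPN-/- CRY2, Adamts6 was higher (1.28). Adamts10 was at 18.4 and 18.8 CPM in CPN-/-, 26.3 and 25.4 CPM in CPN-/- CRY1, and 10.5 and 12.2 CPM in CPN-/- CRY2, and like Adamts2 it was higher in CPN-/- CRY1 (0.48, adjusted p = 0.02495) and lower in CPN-/- CRY2 (-0.72). The calls of Adamts1, Adamts5, Adam8 and Adamts9 in CPN-/- CRY1 and of Adam23 in CPN-/- CRY2 held under all 17 alternatives. Those of Adamts2, Adam23, Adam15 and Adamts10 in CPN-/- CRY1, and of Adamts1, Adamts2, Adamts6 and Adamts10 in CPN-/- CRY2, were lost without either library of the CRY line concerned (adjusted p between 0.0607 and 0.192), and those of Adam15, Adamts6 and Adamts10 (in both comparisons) also without either library of the other CRY line. With 1 library left out, the number called was highest without a CPN-/- library and lowest without a library of the CRY line itself. The number over all tested genes also moved with single libraries, so such counts say nothing of this list.

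Among genes for the activation, inhibition and clearance of MMPs, 13 of 19 were tested. In CPN-/- CRY1 against CPN-/-, 2 were higher and 1 lower, and in CPN-/- CRY2 against CPN-/-, 1 was higher and 1 lower. Beside the 24.3% and 6.66% of all tested genes called in these comparisons, the first count lay near the share of all genes, and the second rests on a pair of genes. Plat, the tissue plasminogen activator, was higher in both CRY lines, with log2 fold changes of 0.65 and 0.53, and Plau, the urokinase, was higher in CPN-/- CRY1 by 0.48. Bsg, a surface glycoprotein known as an inducer of MMPs, was at 1269 and 1531 CPM in CPN-/-, 769 and 774 CPM in CPN-/- CRY1, and 875 and 880.5 CPM in CPN-/- CRY2. It was lower in both CRY lines, with log2 fold changes of -0.86 and -0.67. The genes that bind or clear MMPs, such as Reck, Lrp1 and Cd44, did not pass the test in either comparison with CPN-/-. All of these calls were lost without either library of the CRY line concerned (adjusted p between 0.0664 and 0.341), and those of Plau in CPN-/- CRY1 and of Plat and Bsg in CPN-/- CRY2 also without either library of the other CRY line. Without either CPN-/- library more genes of the list were called in both CRY lines, and the number over all tested genes also moved with single libraries. The comparisons with CPN-/- share the CPN-/- libraries, and the values are set side by side for that reason without a test of likeness.

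**Figure D4:**
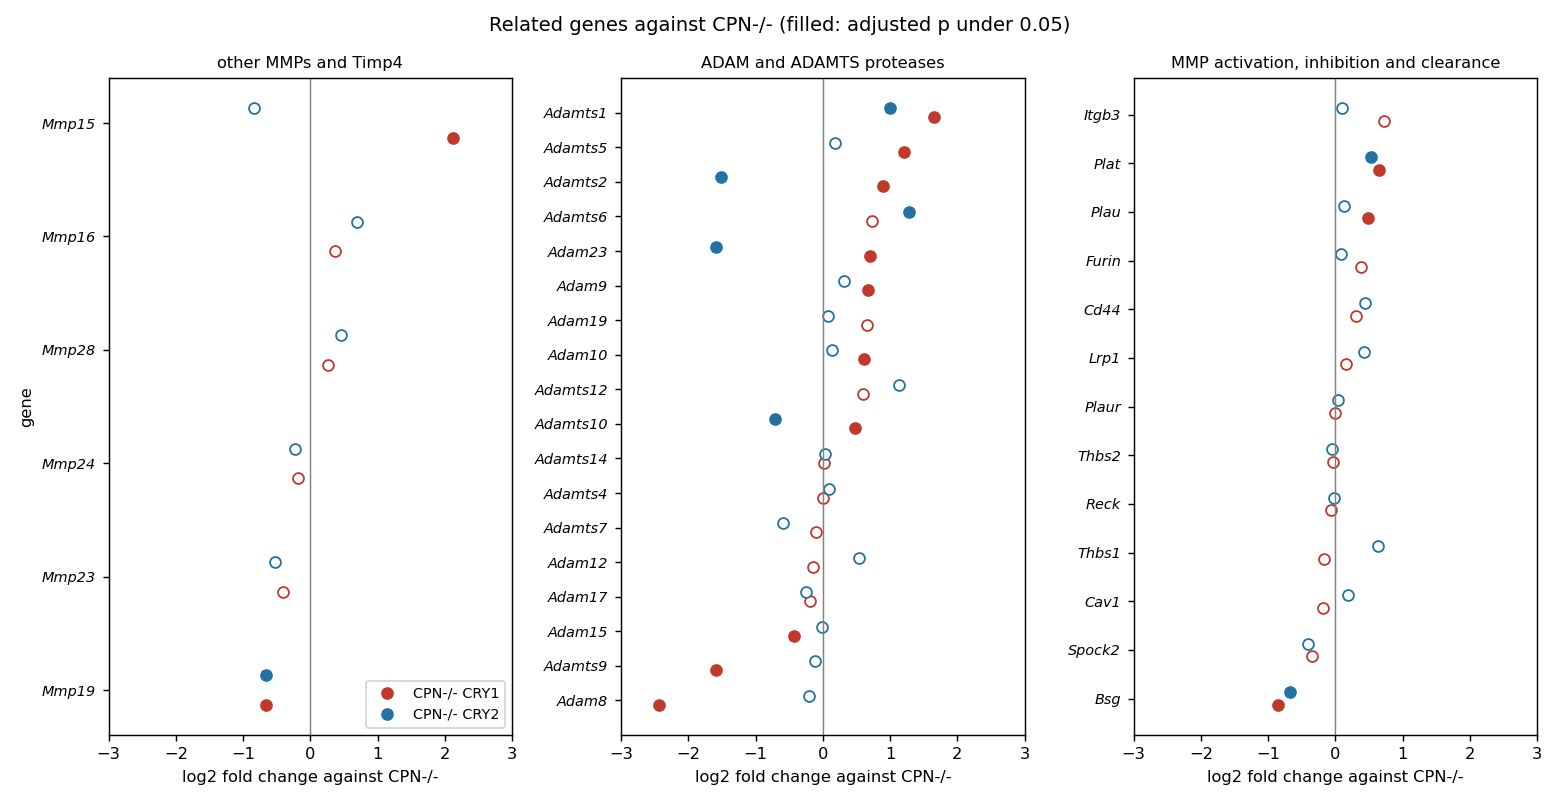
log2 fold change against CPN-/- (horizontal axes) of the tested genes of the 3 related lists, one row per gene, in CPN-/- CRY1 (red) and CPN-/- CRY2 (blue). Filled points have an adjusted p under 0.05. Adamts2, Adam23 and Adamts10 are filled on opposite sides of 0, Adam8 and Mmp15 are filled in CPN-/- CRY1 alone, and Mmp19 and Bsg lie below 0 in both lines.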

How the data were processed

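Per the methods of the study, reads of poly(A) RNA were aligned by RNA STAR to the mouse build mm10, and featureCounts gave counts per gene. The annotation, strand setting and treatment of reads with several matches are not given in the sources used here. The deposited values are whole counts per NCBI Gene identifier, with no normalization or filter by the authors. Groups followed the labels, with 2 libraries in each of 3 lines, and the members and gene lists were chosen with earlier results of these data known.

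From the counts, edgeR 4.0.16 (R 4.3.3) kept 14069 genes by filterByExpr (about 10 counts for a library of median depth, 15 summed over libraries). It applied TMM factors and tested the line in 1 robust quasi-likelihood fit of all 6 libraries, two-sided, with Benjamini-Hochberg adjustment over all tested genes. The threshold was an adjusted p under 0.05. Standard errors and 95% intervals came from the same fit. With 2 libraries against 2, precision rests on the dispersion shared across genes, and a permutation test cannot reach 0.05. All 10 members were named, and of each related list up to 4 called genes per direction by size of change, with a mean of at least 50 counts and separate libraries. A gene named for 1 comparison with CPN-/- was also given for the other where it was called there. Adamts10 is thus given for CPN-/- CRY1, where the called Adam9 (log2 fold change 0.68) and Adam10 (0.61) changed more and are not named above. Symbols, positions and promoters came from RefSeq (GRCm38.p6), transcript lengths and overlaps from GENCODE, and near-identical transcripts from BLAST+ 2.17.0. Promoter windows were found for 8 of the 10 members. A gene of the related lists is not reported here. The tables carried no column of other samples. The alternatives tried were other scaling factors, filters, thresholds and tests, a replicate term, fewer libraries, and removal of the trend with length (loess, span 0.5). DESeq2 1.42.0 served as the alternative test.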

Additional observations from a re-analysis of the deposited data

Results flagged for a closer look

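The CPN-/- CRY1 and CPN-/- CRY2 lines differed from each other, and hence in their log2 fold changes against CPN-/-, by the direct edgeR quasi-likelihood test of CPN-/- CRY1 against CPN-/- CRY2, for 1 member and 10 of the related genes named above. The member was Mmp3, with a log2 difference of -2.56, which kept its call in all 17 alternative settings (-2.70 to -2.40). Of the related genes, Mmp15 (2.95), Adamts2 (2.42), Adam23 (2.30), Adamts10 (1.19), Adamts5 (1.04), Adamts1 (0.66) and Plau (0.36) were higher in CPN-/- CRY1. Adam8 (-2.23), Adamts9 (-1.47) and Adam15 (-0.42) were lower in it. In this comparison 16.3% of all tested genes were called, and chromosomes 16 and 3, which hold Adamts1 with Adamts5 and Adam15, had medians of 0.35 and -0.40. The part of those shifts in these values was not tested, and each CRY line came from a single colony. The differences of Adamts1, Adamts5, Adamts9, Adam15 and Plau lost their call without at least 1 of the libraries of the CRY lines, at adjusted p between 0.0533 and 0.3497.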

How the results depend on the processing

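Over 405 values of the 8 tested members across comparisons and alternatives, 342 kept both direction and side of the threshold, 45 passed it in addition, 11 lost it and 7 changed sign. The calls of Mmp3 and Mmp13 in CPN-/- CRY1 against CPN-/-, and of Mmp3 between the CRY lines, held wherever the gene was tested. Members called in CPN-/- CRY1 against CPN-/- numbered 2, among 24.3% of all tested genes. The number was 1 with at least 10 counts in every library, which removes Mmp13. With the length trend removed it was 7, among 44.9% of all genes then tested. In CPN-/- CRY2 against CPN-/- the members called numbered 2, among 6.66% of all tested genes. With at least 10 counts in every library the number was 0 (edgeR, 4 at an unadjusted p under 0.05). It was 1 with only the 4 libraries of the comparison. It was also 1 at an adjusted p under 0.01 or where a change of 1 on the log2 scale was required. With the length trend removed it was 5, among 22.0% of all genes then tested. Between the CRY lines the members called numbered 1, among 16.3% of all tested genes. The number was 4 with only the 4 libraries and 2 with the DESeq2 Wald test (Mmp2 in addition). With the length trend removed it was 4, among 36.6%. A count without a share of all genes beside it is no result about the members. With 1 library left out the member counts moved in all 3 comparisons, as did the number over all tested genes. In such fits the genes tested were kept as before, and the lone library of a line was assumed to vary like the other lines. None of the values that changed sign passed the threshold. Timp1 in CPN-/- CRY2 was at 0.0022 with the length trend removed. With 1 library left out, Timp1 ranged from -0.0605 to 0.47 for CPN-/- CRY1, and for CPN-/- CRY2 Timp1 ranged from -0.51 to 0.0219 and Mmp2 from -0.0278 to 0.20. Between the CRY lines Mmp11 ranged from -0.12 to 0.0501, Mmp13 from -0.57 to 0.21 and Timp3 from -0.0045 to 0.12. Where no construction is named, the cause was not tested. The replicate numbers did not pair the libraries (correlations of deviations between lines -0.08, 0.14 and -0.03), and a replicate block left 2, 2 and 1 members called, with Timp2 in place of Mmp3 (adjusted p = 0.0606) in CPN-/- CRY2. Genes called over all tested genes ranged from 679 to 8958 (3423 as reported) for CPN-/- CRY1, from 184 to 8024 (937) for CPN-/- CRY2 and from 477 to 6853 (2292) between the CRY lines. Depth limited Mmp9, Mmp10 and, in the CRY lines, Mmp13.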
